A study of Homo sapiens with 3 samples.

Results

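The genes described here encode the scaffold outside the cell and the receptors that hold it. They are 49 genes for collagens, laminins, other basement membrane proteins, fibronectin, matricellular proteins, lysyl oxidases and integrin subunits. The list was chosen by gene name, with earlier results of these data known. Of 19775 genes named on the arrays, 47 were members, measured by 150 of the 54675 probe sets, and LAMA3 and ITGB6 are not analysed here. The samples were 3 RNA preparations, 1 array each, of a human hepatocellular carcinoma line from metastatic disease, MHCC97Low, its cisplatin-resistant subline MHCC97L/CisR (here CisR) and its doxorubicin-resistant subline MHCC97L/DoxR (here DoxR). Cultures were kept in DMEM containing 10% FBS, and the labels give no treatment before RNA extraction. Drug concentrations and selection times were not used here. The design asks which genes separate each resistant subline from the parental line. With 1 array per line no spread between cultures, no SD and no test could be had, so that precision is limited by having 3 arrays.

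Collagens are triple helices of 3 chains. Fibrillar collagens form tension-bearing fibres, type IV collagen forms the sheet of basement membranes together with laminins, and type VI collagen forms beaded microfilaments around cells. Integrins are dimers of an alpha and a beta subunit that bind these proteins and connect them to the cytoskeleton. Matricellular proteins are secreted proteins that modulate adhesion and growth factor signalling rather than build fibres. In the liver most fibrillar collagen is made by stellate cells and fibroblasts, while carcinoma cells make basement membrane proteins and integrins of their own.

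Values are MAS5 signals in arbitrary units. Signals of different probe sets are not on 1 scale, so only arrays were compared, gene by gene, each gene being represented by the probe set of highest mean. Signals under the floor of 76.9, the median of all values, were set to the floor ahead of the log2 step, "at least" marks a fold against an array at that floor, and a 2-fold difference was called. At least 1 array was above the floor for 37 members. The other 10, COL1A2, COL3A1, COL5A1, COL4A1, COL4A3, COL4A6, COL12A1, TNC, POSTN and ITGB3, stayed at or under it on all 3 arrays by that probe set. Median signals of the arrays were 73.3 to 79.2. Of 10 hepatocyte markers, 9 were above the floor in the parental, 8 in CisR and 7 in DoxR, with APOA1 at or under it throughout. Their summed signal, which the brightest probe sets set, was 15175, 2395 and 7211. Gene by gene, all 9 were below parental in CisR, and 8 were in DoxR, where ALB, albumin, was 2.02-fold higher. Of 6 epithelial markers 5 were above the floor on each array, and EPCAM was at or under it throughout. KRT8 and KRT18, keratins of epithelial cells, had signals of 23132 to 34849, and KRT19 also lay within 2-fold. CDH1 had 798 in the parental, 1708 in CisR and 3062 in DoxR, and CLDN1 had 367, 150 and 2018. CLDN1 was thus 2.45-fold lower than parental in CisR and 5.5-fold higher in DoxR. Of 7 fibroblast markers, 1, 3 and 1 were above the floor, LUM on every array and DCN and THY1 in CisR alone. The others, PDGFRA, PDGFRB, FAP and DPT, were at or under it on all arrays. Of 7 stellate cell and pericyte markers 0, 1 and 1 were above it, of 6 endothelial markers 2 on each array (PECAM1 and KDR), and of 4 leukocyte markers 0, 1 and 1.

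Most members differed little between the arrays, and 11 of them reached 2-fold in at least 1 of 3 comparisons. The matching count over all genes is not given here, and the shares that follow are for single comparisons. In CisR 0 of 37 compared members were 2-fold higher and 3 were 2-fold lower than in the parental array, against 2.82% higher and 2.58% lower (5.4% in all) of the 12699 genes compared. In DoxR 3 were higher and 3 lower, against 2.99% and 2.75% (5.75% in all) of 12599 genes. Between the sublines 0 of 35 were higher and 6 lower in DoxR, against 3.05% and 3.32% (6.37% in all) of 12593 genes, and these 6 were all collagens. The median log2 difference of the members was -0.13 in CisR and -0.31 in DoxR, beside 0.02 and 0.00 over all genes. The sign of the CisR median turned with a lower floor (0.058), without a floor (0.039) and with probe sets free of shared-probe suffixes (0.10). Members below the parental value numbered 21 of 37 (56.8%) in the former and 29 of 37 (78.4%) in the latter, beside 47.9% and 49.6% of all genes. Both comparisons share the parental array.

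**Figure D1:**
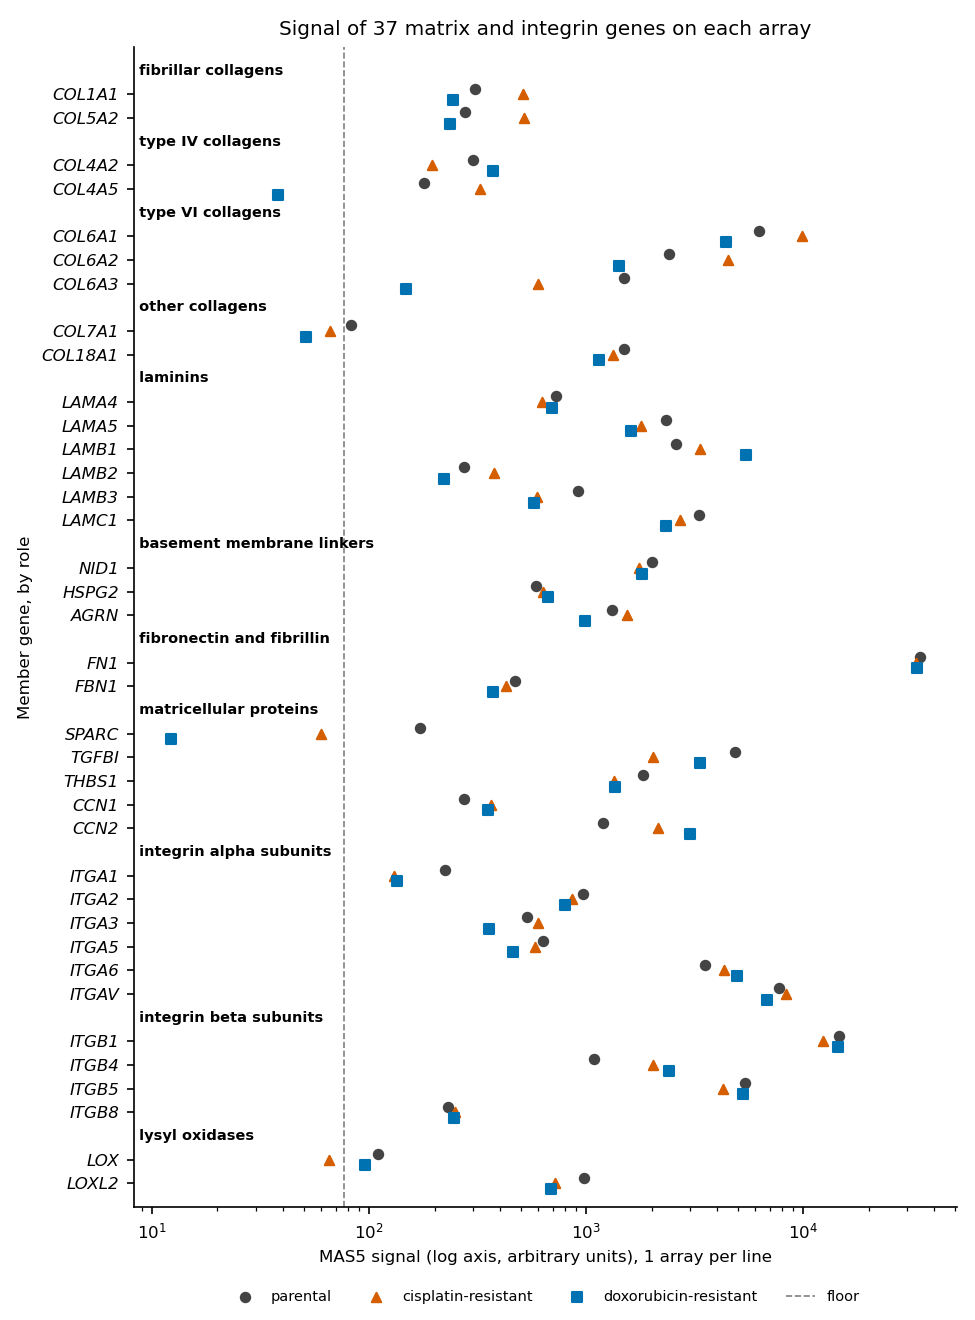
MAS5 signal (log axis) of the 37 members above the floor on at least 1 array, 1 symbol per array, grouped by role, with the floor of 76.9 as a dashed line. The 3 arrays lie close together for most genes, whereas COL6A3 spreads from 147 to 1499 and COL4A5 and SPARC cross the floor.

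Type VI collagen held COL6A3, the member with the widest measured difference. Its chains are encoded by COL6A1 and COL6A2, neighbours on chromosome 21, and by COL6A3 on chromosome 2. COL6A1 had a signal of 6261 in the parental, 9812 in CisR and 4413 in DoxR. COL6A2 had 2413, 4499 and 1409. Both were highest in CisR and lowest in DoxR, 1.57-fold and 1.86-fold above parental in the former and 1.42-fold and 1.71-fold below it in the latter. COL6A3, whose product is the largest of these chains, had 1499, 597 and 147. It was lower than parental in both sublines, 2.51-fold in CisR and 10.2-fold in DoxR. Against CisR, DoxR was 2.22-fold lower for COL6A1, 3.19-fold for COL6A2 and 4.05-fold for COL6A3.

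Of the 8 probe sets of COL6A1, 5 were above the floor in either subline, and all 5 were lower in DoxR than in CisR, by 1.49-fold to 2.35-fold with bounds included. COL6A2 had another probe set with 81.0, 225 and 120 in the parental line, CisR and DoxR. By that probe set CisR was 2.78-fold above parental, DoxR was 1.48-fold above rather than below it, and the sublines differed by 1.88-fold. COL6A3 has 1 probe set, so no other measurement of it was at hand.

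The start regions of COL6A2 and COL6A3, which differed in direction in CisR, are given as RefSeq windows of GRCh38.p14 from 250 bases before to 50 after the start. Capitals mark the TATA box letters TATAAA and the GC box letters GGGCGG, on either strand. COL6A1 was not in that table. The COL6A2 window is chr21:46097862-46098161 on the plus strand and the COL6A3 window chr2:237414115-237414414 on the minus strand.
COL6A2: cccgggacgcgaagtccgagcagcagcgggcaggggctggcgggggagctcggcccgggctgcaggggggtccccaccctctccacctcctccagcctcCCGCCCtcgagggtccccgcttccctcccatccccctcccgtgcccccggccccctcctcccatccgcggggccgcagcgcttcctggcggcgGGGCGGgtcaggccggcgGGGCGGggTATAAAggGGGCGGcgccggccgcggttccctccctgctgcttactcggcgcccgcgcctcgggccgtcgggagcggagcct
COL6A3: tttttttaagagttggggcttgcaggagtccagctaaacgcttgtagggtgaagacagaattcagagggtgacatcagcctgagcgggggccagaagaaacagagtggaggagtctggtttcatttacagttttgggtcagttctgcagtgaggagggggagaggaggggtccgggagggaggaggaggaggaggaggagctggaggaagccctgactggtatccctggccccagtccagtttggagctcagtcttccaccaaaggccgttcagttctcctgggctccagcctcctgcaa
The COL6A2 window is 79.3% G and C, with 4 GC boxes and 1 TATA box 32 bases before the start. The COL6A3 window is 56.3% G and C and holds neither set of letters. Of all 35116 windows in the table, 45.0% hold GGGCGG and 11.5% hold TATAAA.

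Among the fibrillar collagens, COL1A1 and COL5A2 followed the order of COL6A1 and COL6A2 over the arrays. COL5A2, a chain of type V collagen that regulates fibre diameter, had 277 in the parental, 515 in CisR and 236 in DoxR. It was 2.18-fold lower in DoxR than in CisR, and 2.78-fold lower by its other probe set. COL1A1, a chain of type I collagen, had 309, 511 and 242, 2.11-fold lower in DoxR than in CisR. That value comes from a probe set of the kind that can match several transcripts, and its other 4 probe sets were at or under the floor on all arrays. Neither gene differed by 2-fold from parental in either subline, with log2 differences of 0.73 and -0.35 for COL1A1 and 0.90 and -0.23 for COL5A2. COL1A2, the partner chain of COL1A1, was under the floor on all arrays.

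Type IV collagen genes lie in head-to-head pairs that start close to each other. In the pair of COL4A1 and COL4A2 and in that of COL4A5 and COL4A6, 1 partner was above the floor. COL4A2 had 300.3 in the parental, 195 in CisR and 372 in DoxR. It ran opposite to COL1A1, COL5A2, COL6A1 and COL6A2, 1.54-fold lower in CisR than in the parental, 1.24-fold higher in DoxR and 1.90-fold apart between them. Its other probe set had 75.2, 52.7 and 126. That one was above the floor in DoxR alone, so it does not order the parental and CisR arrays. COL4A1, the partner of COL4A2, was under the floor on all arrays. COL4A5 had 178, 324 and 38.0. It was 1.82-fold higher in CisR, at least 2.32-fold lower in DoxR, and at least 4.21-fold apart between the sublines. Its partner COL4A6 was under the floor on all arrays.

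The windows of these pairs overlap, and capitals mark the bases that partners share. The start sites of COL4A1 and COL4A2 are 127 bases apart and share 226 bases of window, at chr13:110307108-110307407 on the minus strand and chr13:110307034-110307333 on the plus strand. Those of COL4A5 and COL4A6 are 380 bases apart and share 121 bases, at chrX:108439588-108439887 on the plus strand and chrX:108439409-108439708 on the minus strand, the nearer of 2 windows of COL4A6.
COL4A1: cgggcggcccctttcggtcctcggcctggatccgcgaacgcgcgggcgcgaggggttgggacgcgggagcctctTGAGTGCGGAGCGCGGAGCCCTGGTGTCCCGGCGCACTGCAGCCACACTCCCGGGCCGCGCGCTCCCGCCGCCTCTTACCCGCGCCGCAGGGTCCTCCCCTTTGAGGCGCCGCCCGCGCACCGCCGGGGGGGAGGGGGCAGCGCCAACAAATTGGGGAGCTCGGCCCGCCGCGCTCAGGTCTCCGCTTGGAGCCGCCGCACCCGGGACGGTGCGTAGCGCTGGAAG
COL4A2: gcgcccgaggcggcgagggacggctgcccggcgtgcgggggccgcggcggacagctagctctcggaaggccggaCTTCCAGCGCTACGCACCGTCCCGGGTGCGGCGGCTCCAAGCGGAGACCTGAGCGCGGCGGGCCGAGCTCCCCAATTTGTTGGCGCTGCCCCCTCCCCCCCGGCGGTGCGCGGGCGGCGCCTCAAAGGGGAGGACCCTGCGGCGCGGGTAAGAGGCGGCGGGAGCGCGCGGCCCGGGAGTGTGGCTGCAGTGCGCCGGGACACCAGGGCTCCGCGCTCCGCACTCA
COL4A5: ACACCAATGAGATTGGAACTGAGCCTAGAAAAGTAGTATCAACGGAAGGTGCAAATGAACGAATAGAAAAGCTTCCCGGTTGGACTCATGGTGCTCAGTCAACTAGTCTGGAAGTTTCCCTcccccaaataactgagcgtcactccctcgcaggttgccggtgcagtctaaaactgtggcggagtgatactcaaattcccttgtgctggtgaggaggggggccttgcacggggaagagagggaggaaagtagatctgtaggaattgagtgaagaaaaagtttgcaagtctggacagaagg
COL4A6: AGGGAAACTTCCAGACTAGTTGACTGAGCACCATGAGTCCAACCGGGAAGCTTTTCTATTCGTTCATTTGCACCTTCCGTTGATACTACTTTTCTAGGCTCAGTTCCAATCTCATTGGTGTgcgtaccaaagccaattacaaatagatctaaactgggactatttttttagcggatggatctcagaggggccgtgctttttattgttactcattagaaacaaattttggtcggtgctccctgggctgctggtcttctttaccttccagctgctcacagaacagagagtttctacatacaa
The COL4A1 and COL4A2 windows are 76.7% and 77.7% G and C and each hold 1 CCAAT box (CCAAT on either strand), which the pair shares. The COL4A5 and COL4A6 windows are 49.3% and 43.7% G and C, hold no GGGCGG, and hold 2 and 3 CCAAT boxes. CCAAT is in 34.6% of all windows.

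COL18A1, a basement membrane collagen whose end fragment is endostatin, had 1499, 1321 and 1146 and lay within 2-fold throughout. It lies 3 compared genes before COL6A1 on chromosome 21. COL7A1, the anchoring fibril collagen, had 82.5 in the parental array and was under the floor in both sublines, at 65.9 and 51.1. Of the 16 collagens, 9 were compared with parental, and 5 were above and 4 below it in CisR, 1 above and 8 below it in DoxR. Of all genes 47.9% were below parental in CisR and 49.6% in DoxR. Of the 8 compared between the sublines, 7 were lower in DoxR, 6 of them by 2-fold, beside 51.3% and 3.32% of all genes. Besides the probe sets by which these 6 genes were picked out, 6 others of COL5A2, COL6A1 and COL6A2 were compared, all lower in DoxR and 3 of them by 2-fold. They were read on the same arrays, so they are not independent of that choice. COL1A1, COL4A5 and COL6A3 had no other compared probe set. The 27 other members compared between the sublines had 0 at 2-fold and a median log2 difference of 0.01, beside -1.14 for the collagens.

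**Figure D2:**
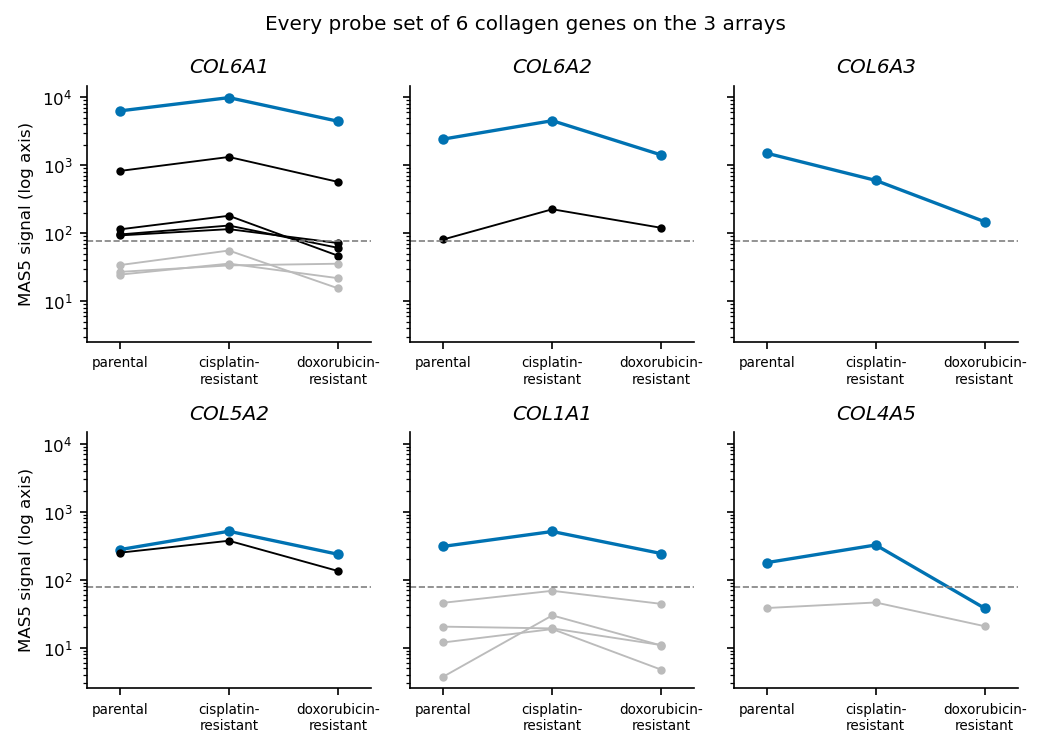
MAS5 signal (log axis) of every probe set of the 6 collagen genes that were 2-fold lower in DoxR than in CisR. The blue line is the probe set that stands for the gene, black lines are its other probe sets above the floor (dashed, 76.9) on at least 1 array, and grey lines those under it on all. The 6 blue lines chose the genes, and the 6 black lines, of COL5A2, COL6A1 and COL6A2 only, are lower in DoxR as well. Both come from the same arrays, so the black lines are not independent of the choice.

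Of the 7 fibroblast markers, LUM, the collagen-binding proteoglycan lumican, was also highest in CisR, with 258 in the parental, 2632 in CisR and 1167 in DoxR. DCN and THY1 were just above the floor in CisR, at 86.0 and 82.5, and under it elsewhere, and the other 4 were at or under the floor on all arrays. The summed signal of the 7, 487, 2875 and 1281, therefore follows LUM and does not stand for the list. The part of these markers in the collagen values was not tested.

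Several collagens lie among neighbours that differed the same way. The median log2 difference between the sublines was taken over the 20 nearest compared genes, 10 on each side. It was -0.61 around COL6A1 and -0.60 around COL6A2, with 18 of 20 neighbours lower in DoxR. These genes are adjacent, so their neighbours are nearly the same genes, and each counts the other and COL18A1 among them. Around COL1A1 on chromosome 17 the median was -0.51, with 19 of 20 lower. With that median subtracted, COL6A2 stayed past 2-fold at -1.07, and COL6A1 and COL1A1 came to -0.55 and -0.57. Around COL6A3, COL4A5 and COL5A2 the medians were 0.21, -0.05 and 0.04, and the differences were -2.22, -2.02 and -1.16 after subtraction. In CisR against parental the neighbours of COL6A1 and COL6A2 had a median of 0.47, leaving 0.18 and 0.43. COL18A1 was at -0.18 there, against a median of 0.47 around it. Between the sublines it was at -0.21, beside a median of -0.61. The part of the neighbours' shift in these values was not tested.

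Laminins are cross-shaped trimers of an alpha, a beta and a gamma chain. Of 6 measured chains 1 reached 2-fold, in DoxR against parental, where 5.75% of all genes did. This was LAMB1, the beta chain of many basement membrane laminins. It had 2591 in the parental, 3329 in CisR and 5441 in DoxR, and was 2.10-fold higher than parental in the latter, 2.01-fold by its other probe set. DoxR was the high one, with CisR nearer to the parental value. Its neighbours on chromosome 7 had a median of 0.37 there, 18 of 20 above parental, and LAMB1 was at 0.70 with that median subtracted, under 2-fold. LAMC1, the gamma chain that pairs with it, had 3301, 2715 and 2340.1, and was 1.41-fold lower than parental in DoxR. LAMA5 had 2340, 1784 and 1600.2, and LAMB3, a chain of the epithelial anchoring laminin, had 914, 593 and 573. LAMA4 differed by at most 1.15-fold between arrays by its brightest probe set, but dimmer ones were up to 1.46-fold above parental in CisR and 1.39-fold above it in DoxR, against values below parental by the brightest. LAMB2 was 1.37-fold higher in CisR and 1.24-fold lower in DoxR. In all, 5 of 6 laminin chains were below parental in DoxR, beside 49.6% of all genes.

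The basement membrane linkers and the fibronectin group stayed within 2-fold. NID1, nidogen, which joins laminin to type IV collagen, had 2002, 1745 and 1809. HSPG2, perlecan, had log2 differences from parental of 0.11 and 0.20 in CisR and DoxR, and AGRN, agrin, 0.22 and -0.42. FN1, fibronectin, had 34306, 33076 and 33435, with log2 differences of -0.05 and -0.04. These signals are near the top of the scale, whose highest values were 44066 to 52776, and compression of differences there was not tested. Its dimmer probe sets had log2 differences from -0.03 to 0.25 in CisR and from -0.79 to -0.11 in DoxR. The brightest of these, with 550.2, 653 and 319, was 2.05-fold lower in DoxR than in CisR, unlike the brighter probe sets. FBN1, fibrillin, was 1.10-fold and 1.26-fold lower. The lysyl oxidases cross-link collagen. LOXL2 had 975, 715 and 688, 1.36-fold and 1.42-fold below parental, and LOX was close to the floor, at 110, 65.5 and 95.7.

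The matricellular proteins went both ways. CCN2, connective tissue growth factor, had 1197 in the parental, 2147 in CisR and 2989 in DoxR. Both sublines were higher, by 1.79-fold and 2.50-fold. The related CCN1 had 272, 364 and 353, 1.34-fold and 1.30-fold higher. By its other probe set, with 155, 207 and 159, CCN1 was 1.34-fold higher in CisR and 1.03-fold higher in DoxR. TGFBI, a secreted protein that binds collagen and integrins, had 4849, 2037 and 3325. It was 2.38-fold lower than parental in CisR and 1.46-fold lower in DoxR. SPARC, a collagen-binding protein, had 172, 59.7 and 12.2. It was above the floor in the parental array alone and at least 2.24-fold lower in each subline. Its other probe set was under the floor on all arrays. THBS1, thrombospondin, had 1820.0, 1348 and 1358, 1.35-fold and 1.34-fold lower. TGFBI and CCN2 each have 1 probe set.

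CCN2 is a known target of TEAD factors, which act with the co-activators YAP and TAZ and bind the letters GGAATG. Its window, chr6:131951323-131951622 of GRCh38.p14 on the minus strand, is shown because CCN2 had the highest fold of the higher members. Capitals mark GGAATG, searched on both strands.
CCN2: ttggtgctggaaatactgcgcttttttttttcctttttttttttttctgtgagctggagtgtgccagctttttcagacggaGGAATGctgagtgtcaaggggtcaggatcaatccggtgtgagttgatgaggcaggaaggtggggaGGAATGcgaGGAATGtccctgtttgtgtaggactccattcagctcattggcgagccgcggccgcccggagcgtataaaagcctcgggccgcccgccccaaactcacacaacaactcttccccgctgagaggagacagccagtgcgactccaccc
It holds 3 copies, beginning 169, 104 and 95 bases before the start. GGAATG is in 14.0% of all 35116 windows, and 45 windows (0.128%) hold 3 or more. Of the 50 windows of 38 members in the table, 7 (14.0%) hold it, and CCN1 was not in the table. Of 14 TEAD factors, co-activators and target genes other than CCN1 and CCN2, 12 were compared. In CisR 0 were 2-fold higher and 1 lower, F3, the coagulation receptor tissue factor, at 2.13-fold, beside 2.82% and 2.58% of all genes. In DoxR 0 were higher and 0 lower, beside 2.99% and 2.75%. The 12 genes had median log2 differences of 0.09 and 0.00, and ANKRD1, another target gene, was under the floor on all arrays.

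**Figure D3:**
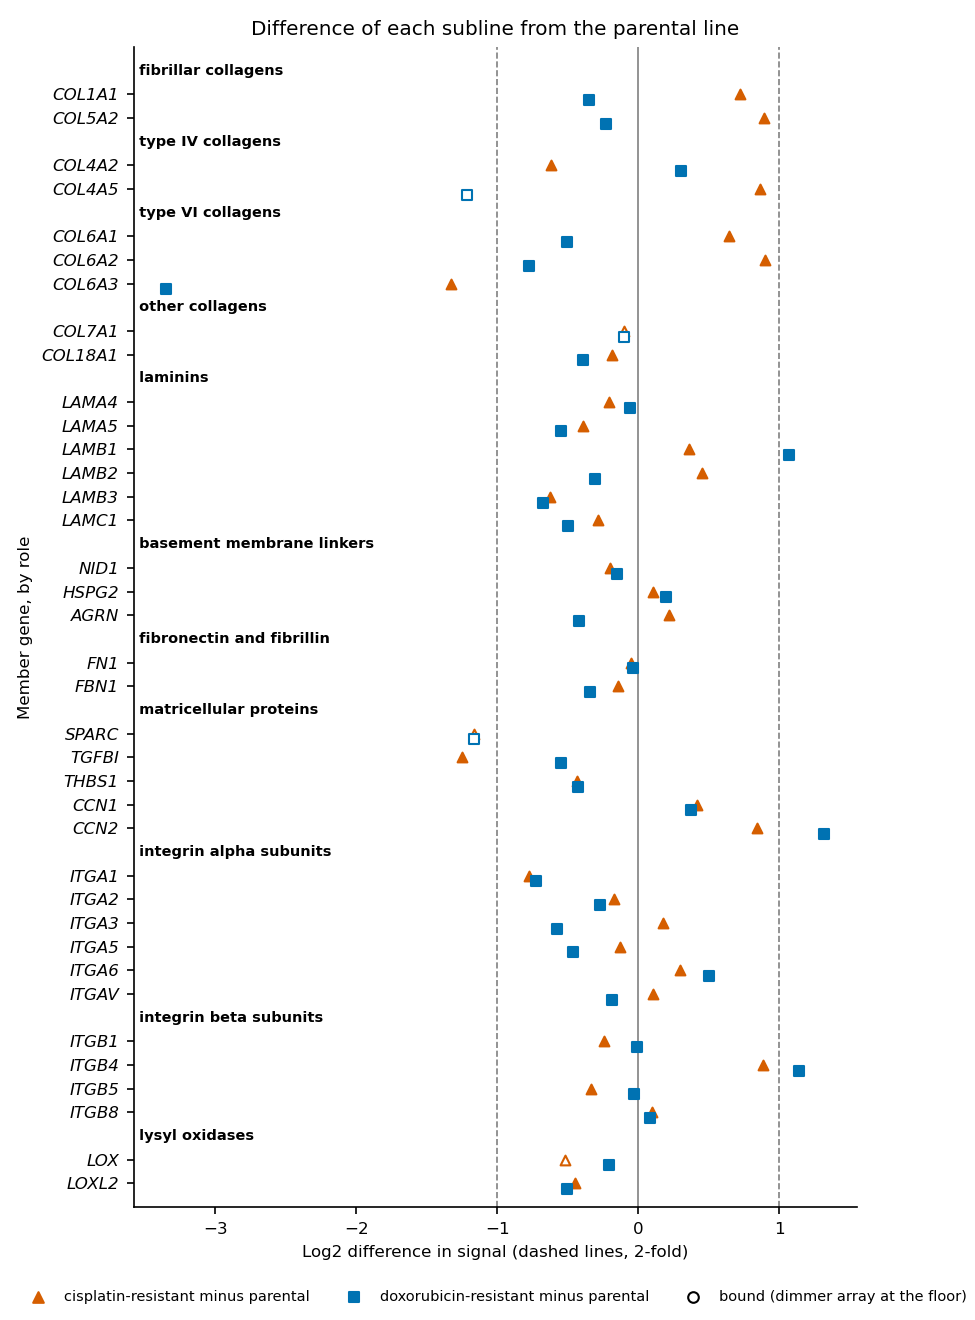
Log2 difference from the parental array for the 37 members above the floor on at least 1 array, as triangles for CisR and squares for DoxR, grouped by role. Dashed lines mark 2-fold and open symbols are bounds. COL6A3 at -3.35 lies farthest from 0, and CCN2 at 1.32, ITGB4 at 1.14 and LAMB1 at 1.07 are past 2-fold on the higher side.

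Among the integrins 1 of 10 compared subunits reached 2-fold, in DoxR against parental, where 5.75% of all genes did. ITGB4, the beta subunit of the laminin receptor of hemidesmosomes, had 1091 in the parental, 2021 in CisR and 2406 in DoxR. It was 1.85-fold and 2.21-fold higher, and 2.04-fold and 2.45-fold by another probe set, while 3 further probe sets were under the floor. With the median of its neighbours on chromosome 17 subtracted, the log2 difference in DoxR went from 1.14 to 0.89, under 2-fold. That in CisR was under 2-fold already and went from 0.89 to 0.97. ITGA6, the alpha subunit that pairs with ITGB4, had 3506, 4311 and 4972, 1.23-fold and 1.42-fold higher, in the same order of arrays. The other alpha subunits were all below parental in DoxR. ITGA1, a collagen receptor subunit, had 223, 130 and 135, 1.71-fold and 1.65-fold lower. ITGA2, also a collagen receptor subunit, was 1.13-fold and 1.21-fold lower, and 1.78-fold and 1.69-fold by its other probe set. ITGA3, which binds laminin, had 531, 600 and 357, and ITGA5, the fibronectin receptor subunit, 634, 580 and 461. ITGAV, which pairs with several beta subunits, had 7722, 8328 and 6791.

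The remaining beta subunits were within 2-fold by every compared probe set, though their probe sets differed. ITGB1, the shared partner of most alpha subunits, had 14538, 12273 and 14500, with log2 differences from parental of -0.24 and -0.00. Bright probe sets of ITGB1 with 5835, 5010 and 4791, and with 5170, 4167 and 4109, were below parental in both sublines. Their log2 differences were -0.22 and -0.31 in CisR and -0.28 and -0.33 in DoxR. By a dim probe set with 93.1, 175 and 140, ITGB1 was instead 1.88-fold and 1.51-fold above parental. ITGB5 had 5391, 4272 and 5277, 1.26-fold below parental in CisR, where its other probe sets ran from 1.99-fold below (646, 325 and 469) to 1.06-fold above. The last subunit, ITGB8, had 232, 249 and 246. The integrins as a group had median log2 differences of -0.01 and -0.11. In DoxR 3 of 10 were above parental, ITGA6, ITGB4 and ITGB8, and 70% were below it, beside 49.6% of all genes.

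Other genes of the same pathways were listed for comparison. Of 25 genes for collagen folding, processing and cross-linking, 20 were compared, and 1 was 2-fold higher and 0 lower in CisR and 0 in either direction in DoxR, beside 5.4% and 5.75% of all genes past 2-fold, so these counts do not stand apart from the background. The higher gene was LOXL1, a lysyl oxidase, with 915, 2026 and 984, which is 2.21-fold above parental in CisR and 2.06-fold lower in DoxR than in CisR. Of further collagens, laminins and nidogens 7 were compared in CisR, where COL9A3 was at least 2.73-fold higher, and 8 in DoxR, with 0 at 2-fold. Among 26 other matricellular and fibre glycoproteins 13 and 12 were compared, and CCN4 was 2.85-fold and 2.34-fold lower, with 639, 224 and 273. EFEMP2 and MFAP2, proteins of elastic fibres singled out after their values were seen, had 239, 410 and 187, and 115, 162 and 58.0. They were 2.19-fold and at least 2.10-fold lower in DoxR than in CisR, and SPARCL1, a relative of SPARC singled out in the same way, was 2.07-fold higher.

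Of 27 listed genes of integrin activation and focal adhesions, 24 were compared in CisR, with 0 at 2-fold higher and 1 lower, beside 2.82% and 2.58% of all genes. Below parental were 29.2% of them, beside 47.9% of all genes, and their median log2 difference was 0.15. In DoxR 25 were compared, with 3 higher and 1 lower, beside 2.99% and 2.75%, and 32% were below parental, beside 49.6%, with a median of 0.10. The higher genes were ZYX, zyxin, at 2.21-fold, FERMT1, the integrin activator kindlin of epithelia, at 2.19-fold, and PARVB, a parvin, at 2.10-fold. The lower gene in both was TGFB1I1, a relative of paxillin, at 3.22-fold and 2.39-fold. Of 13 further integrin subunits, 0 of 8 reached 2-fold in CisR, and in DoxR ITGB7 was at least 2.91-fold higher and ITGA7 at least 2.46-fold and ITGA10 2.10-fold lower among 7. No gene of the hemidesmosome and tetraspanin list (6 compared) or of the non-integrin matrix receptors (8 compared) reached 2-fold in either subline. The parental array is shared by both comparisons.

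**Figure D4:**
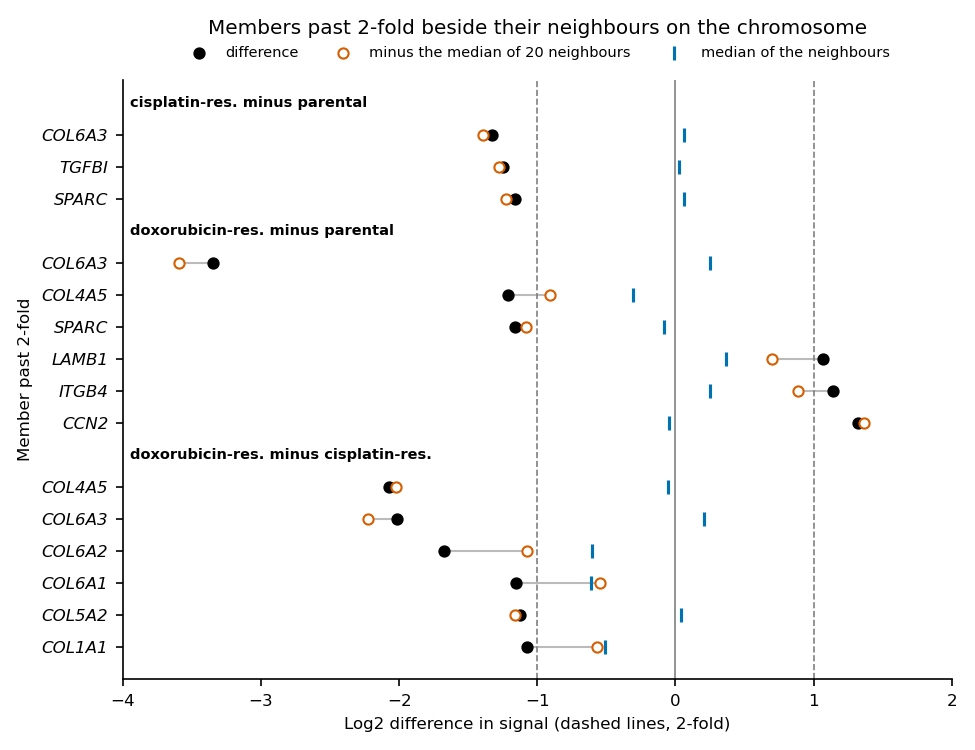
Log2 differences of the 15 pairs of member and comparison past 2-fold (black), the median of the 20 nearest compared genes on the chromosome (blue bar), and the difference with that median subtracted (open circle). COL4A5, LAMB1 and ITGB4 against parental and COL6A1 and COL1A1 between the sublines move inside 2-fold (dashed lines), and the other 10 pairs stay outside it.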

How the data were processed

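RNA of 3 lines was measured on Affymetrix U133 Plus 2.0 arrays, 1 array per line. The deposited values are linear signal intensity per probe set, made by the authors with MAS5 per the submitters' processing notes, with no version given in the sources used. With 2.0% of values trimmed at either end, the mean of every array was 500.1, the form that global scaling gives, and such scaling assumes similar total signal in each array. MAS5 subtracts mismatch signal, which makes low values noisy, and detection calls were not used. Lines were assigned from the sample labels.

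Gene names of probe sets came from the platform annotation and were updated through Entrez identifiers in RefSeq (GRCh38.p14), which also gave gene order. Of 54675 probe sets 41091 had 1 symbol, 1801 had several and named no gene, 62 were controls and 11721 are not named here. Of those with 1 symbol 41037 matched RefSeq. A gene was compared when at least 1 of the arrays was above the floor (76.9). Differences of log2 values were computed with Python 3.11.15, pandas 2.3.3 and numpy 2.4.6, and the steps were tested on simulated arrays. Every member is accounted for. Members past 2-fold, the one with the highest signal in each role group and called members whose probe sets disagree were to be given in full, with up to 4 genes of each further list past 2-fold against parental. The members and lists were chosen with earlier results of these data known. Alternatives were other floors, a pseudocount of 16 without a floor, other choices of probe set, quantile normalization, and subtraction of the median of all or of 20 neighbouring genes.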

Additional observations from a re-analysis of the deposited data

Results flagged for a closer look

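The sublines lay on opposite sides of the parental line, and at least 2-fold apart, for 5 members, all collagens. Past 2-fold between the sublines were 6.37% of all genes compared. The share of all genes that also lay on opposite sides of the parental line is not given here. The log2 difference of DoxR from CisR was -1.08 for COL1A1, -1.12 for COL5A2, -2.07 for COL4A5 (a bound, at most this value), -1.15 for COL6A1 and -1.67 for COL6A2. Each was above parental in CisR, by 0.65 to 0.90, and below it in DoxR, by -0.23 to -1.21. COL6A2 did not meet this by its other probe set, which put DoxR 1.48-fold above parental and 1.88-fold below CisR. Only 1 of the 5 probe sets of COL1A1 and 1 of the 2 of COL4A5 were above the floor on any array. With the median of neighbouring genes subtracted, COL6A1 and COL1A1 came to -0.55 and -0.57. With 1 array per line these differences were not tested.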

How the results depend on the processing

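No alternative reversed the direction of a member past 2-fold, and 7 of the 15 pairs of member and comparison past 2-fold stayed past it under every alternative that gave a value. The 2-fold counts moved with the floor. With the floor at the 25th percentile 10 members were past 2-fold against parental in DoxR (6 lower) and 10 between the sublines, all lower, and 11.8% to 12.8% of all genes were. At the 75th percentile 3 of 26 members were higher and 1 lower in DoxR, beside 161 higher and 99 lower of 8306 genes. Between the sublines 0 of 27 were higher and 2 lower, beside 183 and 138 of 8393 genes. There COL1A1, COL5A2 and COL6A3 came to -0.22, -0.23 and -0.44. Of all genes 3.13% and 3.82% were past 2-fold at that floor. Without a floor 4 of 47 were higher and 5 lower in DoxR, beside 875 and 1144 of 19775 genes. Between the sublines 0 were higher and 10 lower, beside 875 and 1192 genes. In either direction 10.2% and 10.5% of all genes were then past 2-fold, beside 5.75% and 6.37% as reported. With probe sets free of shared-probe suffixes 3 were past 2-fold in DoxR, 1 of them lower, beside 5.82% of all genes. With neighbours subtracted 3 were, 1 of them higher, beside 4.89%. The count of higher members in CisR, 0 as reported, was 1 with the lower floor, with the median over probe sets, with those probe sets and with neighbours subtracted. Its median difference was 0.058 with the lower floor, 0.039 without a floor, 0.10 with those probe sets and -0.26 with neighbours subtracted, so its sign is not settled. Between the sublines the median was -0.20, -0.19 and 0.075 with the lower floor, without a floor and with neighbours subtracted. Some alternatives left SPARC, COL4A5 and ITGB4 without a value. No paired analysis was possible because each line has 1 array.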

Other observations

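The integrin subunit ITGB6, which pairs with ITGAV in epithelia, was listed on 4 probe sets that the annotation also gives to LINC02478, so these name no gene here. The one of highest mean had a signal of 78.8 in the parental, 89.2 in CisR and 84.7 in DoxR, next to the floor. A probe set shared by LAMA5 and its antisense gene LAMA5-AS1 had 142, 166 and 111.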
